A study of Mus musculus with 12 samples.

Results

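The 8 genes described here encode the neuronal cannabinoid receptor CB1 and the main enzymes that make and break down its lipid ligands. They were taken by symbol, for their known roles, with earlier results of these data known. All 8 were among the 24421 genes of the deposited count table. The material was bilateral striatum of male C57BL/6J mice, inbred and known for high voluntary ethanol intake. The 6 libraries of the varenicline group are from mice given varenicline at 2 mg/kg, a smoking cessation drug and partial agonist of nicotinic acetylcholine receptors, and the 6 of the saline group are from mice given saline. The labels do not say whether a library is 1 mouse. Both groups drank 20% ethanol in Drinking-in-the-Dark, a limited-access test, over 3 cycles of 2 days with sessions of 2 h that began 3 h into the dark phase. The assigned injection preceded the second day's session by 30 min in the last 2 cycles. Both groups had received saline in the first cycle, and the striatum was dissected after the final session. Both groups had access to ethanol, and no group without it was analysed here.

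Endocannabinoids are lipids made on demand, mostly in the postsynaptic neuron, that travel back across the synapse to CB1 on the axon terminal and lower transmitter release. 2-Arachidonoylglycerol is made by diacylglycerol lipases and broken down mainly by monoacylglycerol lipase, with smaller parts for ABHD6 and ABHD12. Anandamide is released from membrane phospholipid precursors, in one route by NAPE-PLD, and is broken down by the fatty acid amide hydrolase FAAH. In striatum this system is known for its part in long-term depression at the synapses that cortical axons make on projection neurons, and CB1 transcript is found there in projection neurons and in some interneurons.

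Across the 12 libraries the levels of Faah, Mgll, Daglb and Napepld were positively correlated with each other, in 5 of the 6 pairs past the adjusted threshold, and Cnr1 was negatively correlated with each of them. Faah, Mgll, Daglb and Napepld were grouped by these same correlations, out of 28 pairs of the 8 genes. These 4 were lower in 5 of the 6 varenicline libraries than the saline median, and Cnr1 was higher in 5 of 6. The remaining library, varenicline 6, had the highest level of its group for Faah, Mgll, Daglb and Napepld and the lowest for Cnr1. Dagla and Abhd12 shared this, with 5 of 6 varenicline libraries below the saline median and varenicline 6 highest of its group. The share of all tested genes with this pattern was not counted. In the fit of all 12 libraries none of the 8 genes passed an adjusted p of 0.05 (edgeR quasi-likelihood test with Benjamini-Hochberg adjustment), where 0% of the 15148 tested genes passed. Without varenicline 6, Faah and Mgll fell at that threshold, in a fit that called 7.14% of all tested genes lower and 3.55% higher. Varenicline 6 was singled out by its values in these same data, so that fit is a description and not separate support. Without each of the other libraries in turn, none of the 8 passed. Summed marker transcripts of cortical excitatory neurons ranked the libraries almost as Faah did, and with their mean as a covariate the log2 fold changes of Faah, Mgll and Napepld were above 0 but did not pass. With that covariate and without varenicline 6, those of Faah and Mgll were below 0 again, at -0.054 and -0.11, and did not pass either.

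Levels are given as CPM, the count of a gene scaled to library size with TMM factors, within a gene and as the authors' deposited FPKM, which also accounts for transcript length, between genes. Library totals ran from 13340420 to 27917715 counts. The scarcest of the 8 transcripts, Napepld, had at least 141 counts in every library, and the most abundant by counts, Cnr1, at least 4827. All 8 were tested. The tissue label was checked against striatal transcripts: Ppp1r1b, which encodes the projection neuron phosphoprotein DARPP-32, was at 1289 to 1967 CPM in varenicline libraries and 1168 to 1963 CPM in saline libraries, and none of the 14 projection neuron markers was at 0. The cortical vesicular glutamate transporter Slc17a7 was also present in every library, at 51.4 to 663 CPM with varenicline and 415 to 778 CPM with saline.

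Per length, the order of the 8 transcripts was Abhd12, Cnr1, Mgll, Dagla, Abhd6, Daglb, Faah and Napepld. Abhd12, which encodes a membrane-bound hydrolase also known for lysophosphatidylserine breakdown, had a median of 165 FPKM over the 12 libraries (range 145 to 174). Cnr1 followed at 76.3 FPKM (58.8 to 108) and was below Abhd12 in 12 of 12 libraries. Mgll, at 51.2 FPKM (44.8 to 65.8), was below Cnr1 in 10 of 12 libraries, and the ranges of these 2 genes overlapped. Dagla at 25.1 FPKM and Abhd6 at 23.2 FPKM also had overlapping ranges, with Dagla higher in 9 of 12 libraries. The ranges of Daglb at 10.4 FPKM and Faah at 10.3 FPKM overlapped too, with Daglb higher in 6 of 12 libraries. Their order differed by group: Daglb ranked 6 and Faah 7 by varenicline medians, and Faah 6 and Daglb 7 by saline medians. Napepld was the scarcest at 3.52 FPKM (2.26 to 4.51) and was below Faah in 12 of 12 libraries. Mgll was above Dagla, the more abundant of the genes for the enzymes that make its substrate, in 12 of 12 libraries, with a Mgll to Dagla FPKM ratio of 1.82 to 2.32 in varenicline libraries and 1.44 to 2.68 in saline libraries.

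**Figure D1:**
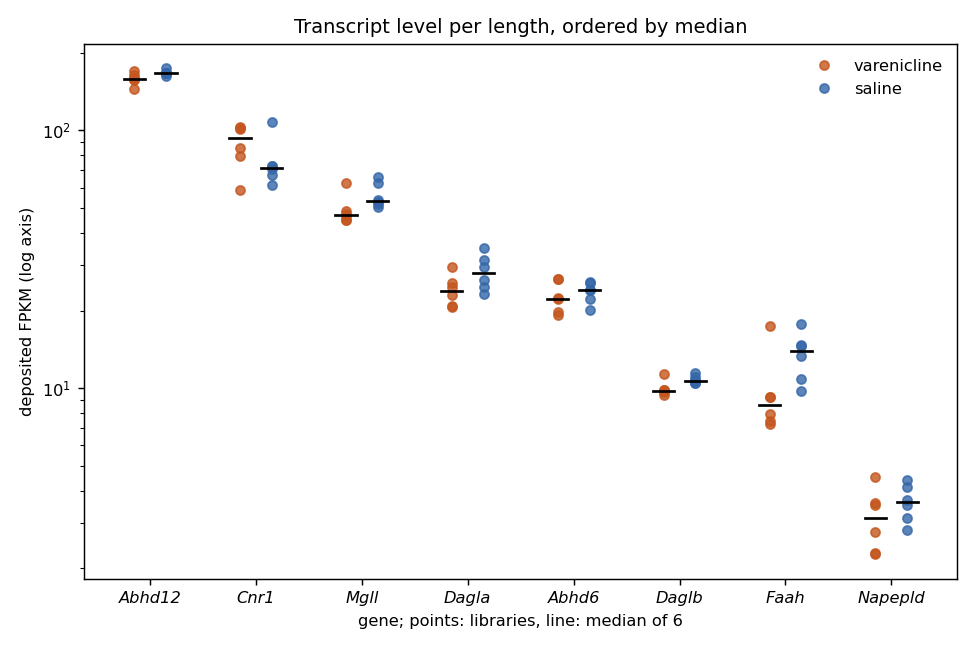
Deposited FPKM (log axis) of the 8 transcripts, ordered by their median over 12 libraries; each point is 1 library, varenicline left of saline, and the line is the median of 6. Abhd12 stands highest at 145 to 174 FPKM and Napepld lowest at 2.26 to 4.51 FPKM; Cnr1 and Mgll overlap, as do Dagla and Abhd6, and Daglb and Faah.

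The genes also differed in how much they varied. Within groups, the SD of log2 CPM was 0.40 for Faah, 0.30 for Cnr1 and 0.30 for Napepld, where the median over tested genes averaging at least 5 CPM was 0.13. These SDs were larger than those of 97.4%, 94.2% and 93.9% of such genes. Abhd12 at 0.057 and Daglb at 0.072 were among the steadier transcripts, above 2.98% and 8.85% of genes.

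The receptor came first among the comparisons of varenicline with saline. Cnr1 (ENSMUSG00000044288, chromosome 4, 33924632 to 33948831 on mm10, plus strand, 2 exons) encodes CB1, a receptor that signals through inhibitory G proteins. Its lowest, median and highest values were 329, 523 and 579 CPM in the varenicline libraries and 345, 402 and 609 CPM in the saline libraries. The groups overlapped, with varenicline 6 lowest of its group and saline 4 highest of its own. The means were 495 ± 98.7 and 424 ± 93.6 CPM (SD, n = 6 each), and the log2 fold change of 0.22 (SE 0.145) did not pass (edgeR adjusted p = 0.447). Without varenicline 6 it was 0.33 (SE 0.12, edgeR adjusted p = 0.0926).

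Both diacylglycerol lipases were lower with varenicline by small amounts. Dagla (ENSMUSG00000035735, chromosome 19, 10245265 to 10304877, minus strand, 20 exons) encodes the lipase that supplies most synaptic 2-arachidonoylglycerol in adult brain. It had 113, 131 and 161 CPM (lowest, median, highest) in varenicline libraries and 127, 154 and 193 CPM in saline libraries. Of the varenicline libraries 3 lay below the lowest saline library. Dagla had a log2 fold change of -0.24 (SE 0.105, edgeR unadjusted p = 0.0405, adjusted p = 0.272). Daglb (ENSMUSG00000039206, chromosome 5, 143464493 to 143504442, plus strand, 15 exons), the related lipase better known from microglia and liver, had 29.4, 30.5 and 35.1 CPM in varenicline libraries and 32.2, 33.3 and 34.9 CPM in saline libraries. Here 5 varenicline libraries were below every saline library and varenicline 6 was above every one. Its difference was -0.11 in log2 (SE 0.055, edgeR adjusted p = 0.329). Exons of Daglb share 809 of 3242 bases with Rac1 on the opposite strand, and the sources do not say whether counting used strand, so reads of the 2 genes could be mixed. Rac1 itself had 302, 331 and 342 CPM with varenicline and 300.0, 320 and 331 CPM with saline (log2 fold change 0.046, edgeR adjusted p = 0.634).

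Among the genes for enzymes that break down 2-arachidonoylglycerol, Mgll had the log2 fold change farthest from 0. Mgll (ENSMUSG00000033174, chromosome 6, 88724412 to 88828360, plus strand, 10 exons) encodes monoacylglycerol lipase. It had 157, 167 and 221 CPM (lowest, median, highest) with varenicline and 181, 189 and 232 CPM with saline. Again 5 varenicline libraries lay below all 6 saline libraries, and varenicline 6 lay in the upper part of the saline range. Mgll had a log2 fold change of -0.19 (SE 0.086, edgeR unadjusted p = 0.0384, adjusted p = 0.267). Without varenicline 6 Mgll fell by 0.27 on the log2 scale (SE 0.066, edgeR adjusted p = 0.0174). That library is singled out by these same values, and without each of the other libraries Mgll did not pass. Exons of Mgll share 152 of 4628 bases with the opposite-strand transcript Gm26588.

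Abhd6 and Abhd12 differed little. Abhd6 (ENSMUSG00000025277, chromosome 14, 8002902 to 8056555, plus strand, 9 exons), a postsynaptic hydrolase, had 36.5, 43.4 and 51.4 CPM with varenicline and 39.2, 45.7 and 49.0 CPM with saline. The varenicline libraries lay on both sides of the saline range, 2 below and 2 above it, and the difference was -0.048 in log2 (SE 0.089, edgeR adjusted p = 0.826). Abhd12 (ENSMUSG00000032046, chromosome 2, 150832515 to 150904731, minus strand, 13 exons) had 256, 282 and 299 CPM with varenicline and 290, 296 and 309 CPM with saline. Of the varenicline libraries 5 were below the lowest saline library by a narrow margin, and the difference was -0.081 in log2 (SE 0.044, edgeR adjusted p = 0.359).

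On the anandamide side, Faah had the largest difference of the 8 genes. Faah (ENSMUSG00000034171, chromosome 4, 115996656 to 116017902, minus strand, 15 exons) had 29.2, 34.2 and 69.5 CPM (lowest, median, highest) in varenicline libraries and 38.6, 54.7 and 71.2 CPM in saline libraries. The 5 varenicline libraries other than varenicline 6 were at or below 37.7 CPM, under every saline library, while varenicline 6 was close to the highest saline library. The means were 39.1 ± 15.3 and 53.3 ± 11.5 CPM (SD, n = 6 each), with a log2 fold change of -0.45 (SE 0.197, edgeR unadjusted p = 0.0388, adjusted p = 0.268). Without varenicline 6 Faah fell by 0.68 on the log2 scale (SE 0.131, edgeR adjusted p = 0.00432). That library is singled out by these same values, and without each of the other libraries Faah did not pass. Napepld (ENSMUSG00000044968, chromosome 5, 21662903 to 21701345, minus strand, 5 exons), the maker of anandamide in this set, had 8.17, 11.2 and 15.7 CPM with varenicline and 10.2, 12.8 and 15.3 CPM with saline. The groups overlapped, 3 varenicline libraries being under the lowest saline library and varenicline 6 above the highest. Napepld differed by -0.18 in log2 (SE 0.150, edgeR adjusted p = 0.579).

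**Figure D2:**
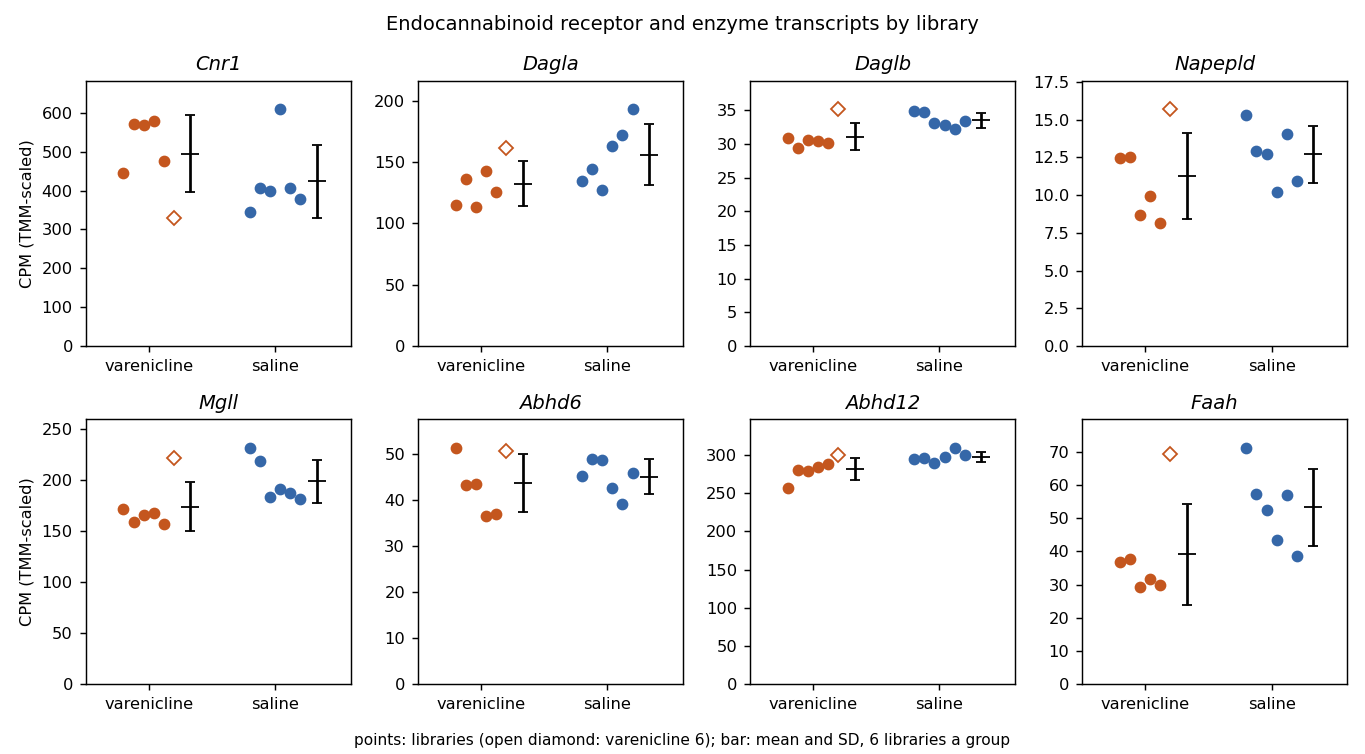
TMM-scaled CPM of each gene in every library, varenicline left of saline; points are libraries, the open diamond is varenicline 6, and bars give the mean and SD of 6 libraries. For Faah, Mgll, Daglb and Abhd12 the filled varenicline points lie below all saline points, while varenicline 6 lies within or above the saline range. The share of all tested genes with such a pattern was not counted.

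In all, 7 of the 8 genes were lower and 1 was higher, where 47.7% of all tested genes were lower. The median log2 fold change of the 8 was -0.14 against 0.0074 over all tested genes. Levels of several of the 7 were correlated across libraries, so the 7 are not separate counts. At an unadjusted p under 0.05 in edgeR 3 were lower, namely Faah, Mgll and Dagla, where 9.63% of all tested genes were lower at that p, and 0 were higher, where 7.26% were. Leaving out 1 library moved the number lower at that p to 0 without varenicline 1, 2, 3 or 5, to 1 without varenicline 4 or saline 1, 2 or 5, to 2 without saline 3, 4 or 6 and to 5 without varenicline 6. Over all tested genes, 2069 of 15232 were lower at that p without varenicline 6. Without each of the other libraries 1049 to 1482 of 15198 to 15235 were. The number higher became 1, Cnr1, without saline 4 or without varenicline 6, and was 0 without each of the others. Over all tested genes 1271 of 15214 were higher without saline 4, 1911 of 15232 without varenicline 6 and 768 to 1277 without each of the others. For 0 of the 8 genes were all varenicline libraries below all saline libraries, where 0.33% of tested genes showed this. For Faah, Mgll, Daglb and Abhd12 5 of the 6 were, and the share of all tested genes with that was not counted. DESeq2 called 0 of the 8, where it called 1.98% of genes lower. With varenicline 6 left out, edgeR called 2 of the 8 lower, Faah and Mgll, where 7.14% of genes were called lower, and 0 higher, where 3.55% were. Limma-voom with sample weights, which gives deviating libraries less weight, called 3 lower, Faah (log2 fold change -0.71, adjusted p = 0.0039), Mgll (-0.30, adjusted p = 0.0114) and Daglb (-0.15, adjusted p = 0.0455), where it called 9.04% of genes lower.

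Levels were compared across libraries for all 28 pairs of the 8 genes. The makers Daglb and Napepld and the breakdown enzymes Faah and Mgll are given first, as the highest r lay among these 4 genes. They were thus grouped by the same values, and the share of all gene pairs with such r was not counted. Pearson's r of log2 CPM over the 12 libraries was 0.95 for Daglb with Mgll (Spearman's rho 0.92), 0.91 for Faah with Mgll (rho 0.92), 0.89 for Faah with Napepld (rho 0.92) and 0.85 for Daglb with Faah (rho 0.84). The permutation p of these r, adjusted over the 28 pairs of the 8 genes, was 0.00028, 0.00112, 0.00112 and 0.00714, and for rho 0.00112, 0.00112, 0.00112 and 0.00577. The first rests on an unadjusted 1e-05, the smallest that 100000 permutations can give. Without the 2 libraries farthest from the median of the first-named gene, r was 0.93, 0.82, 0.82 and 0.86. With each group's mean subtracted, r was 0.93, 0.87, 0.90 and 0.77. The other pairs of these 4 genes were looser. Mgll with Napepld had r = 0.73 (rho 0.78, adjusted permutation p = 0.028 and 0.0165), which was 0.52 without saline 1 and varenicline 6. Daglb with Napepld had r = 0.63 (rho 0.71, adjusted permutation p = 0.0731 and 0.0403; 0.72 without varenicline 2 and 6), and its r did not pass. The pairs of Abhd6 or Abhd12 with each other and with Faah and Mgll had r from -0.21 to 0.54, and none passed (adjusted permutation p of r from 0.117 to 0.537). Cnr1 ran against these genes, with an r of -0.76 with Daglb (rho -0.77), -0.75 with Faah (rho -0.68), -0.70 with Napepld (rho -0.72) and -0.70 with Mgll (rho -0.59). The adjusted permutation p of r was 0.0266, 0.0266, 0.0382 and 0.0382, and that of rho 0.0185, 0.0516, 0.0383 and 0.0875. Without saline 4 and varenicline 4, the libraries farthest from the median of Cnr1, these r were -0.90, -0.81, -0.67 and -0.83. In the same order they were -0.89, -0.85, -0.64 and -0.86 within varenicline libraries. Within saline libraries they were -0.46, -0.48, -0.72 and -0.32. Dagla followed Abhd12, the breakdown enzyme that varied least (r = 0.76, rho 0.87, adjusted permutation p = 0.0141 and 0.00245; r = 0.75 without saline 5 and varenicline 1). Its r with Faah was 0.37 (rho 0.50, adjusted permutation p = 0.308 and 0.154; 0.44 without saline 6 and varenicline 3). Within varenicline libraries the r of Dagla with Faah was 0.74 and within saline libraries -0.68.

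Markers of cortical excitatory neurons were examined in the same libraries. All 14 listed cortical markers had a negative log2 fold change, 11 of them at an unadjusted p under 0.05 in edgeR, 0 past the adjusted threshold, and none was at 0 in the count table. Their summed level was 491 to 1724 CPM with varenicline (median 794) and 1170 to 2029 CPM with saline (median 1595), with an exact permutation p of 0.0152 (two-sided, adjusted p = 0.141 over 13 marker lists). Varenicline 6, at 1724 CPM, lay in the saline range, while the other varenicline libraries ended at 972 CPM. The 14 projection neuron markers were all higher, 4 at an unadjusted p under 0.05, with summed levels of 11261 to 17793 CPM with varenicline and 10434 to 16313 CPM with saline (exact permutation p = 0.134, adjusted p = 0.194). Fewer cells of a type and less RNA per cell cannot be told apart in such bulk tissue.

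Faah followed the summed cortical markers most closely of the 8, with r = 0.95 and rho = 0.99 over 12 libraries (permutation p adjusted over 16 relations 0.00032 and 0.00016; r = 0.96 without varenicline 3 and 5). Within the 6 varenicline libraries r was 0.95 and within the 6 saline libraries 0.99. Of 15134 other tested genes 0.978% had an r with these markers at least as high. Napepld had r = 0.88 (rho 0.89, adjusted permutation p = 0.0008 and 0.00112; 0.73 without the same 2 libraries), Mgll 0.86 (rho 0.94, 0.00144 and 0.00024; 0.88) and Daglb 0.85 (rho 0.85, 0.00199 and 0.00154; 0.88). For these 3 genes 3.41%, 4.17% and 4.59% of other genes had an r at least as high. Within varenicline libraries r was 0.97 for Napepld, 0.84 for Mgll and 0.77 for Daglb, and within saline libraries 0.93, 0.78 and 0.55. Cnr1 had r = -0.71 (rho -0.66, adjusted permutation p = 0.0183 and 0.0343; -0.77 without the same 2 libraries). Of the other genes 4.83% had an r at least as low. With the projection neuron markers Cnr1 had r = 0.83 (rho 0.80, adjusted permutation p = 0.00286 and 0.00386; 0.72 without saline 1 and varenicline 6), where Faah had -0.93 (rho -0.86, 0.00032 and 0.00151; -0.87). Of the other genes 2.09% had an r at least as high as that of Cnr1, and 0.172% at least as low as that of Faah. Dagla, Abhd6 and Abhd12 followed the cortical markers less, with r of 0.47, 0.52 and 0.51 (rho 0.46, 0.45 and 0.64; adjusted permutation p of r 0.137, 0.107 and 0.107, and of rho 0.158, 0.158 and 0.0396; r 0.15, 0.43 and 0.58 without varenicline 3 and 5). Within varenicline libraries their r was 0.69, 0.69 and 0.19. Within saline libraries it was -0.72, 0.16 and -0.17, so the sign differed between groups for Dagla and Abhd12. Over 12 libraries 19.8%, 17.6% and 18.2% of other genes had an r at least as high as those of Dagla, Abhd6 and Abhd12.

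**Figure D3:**
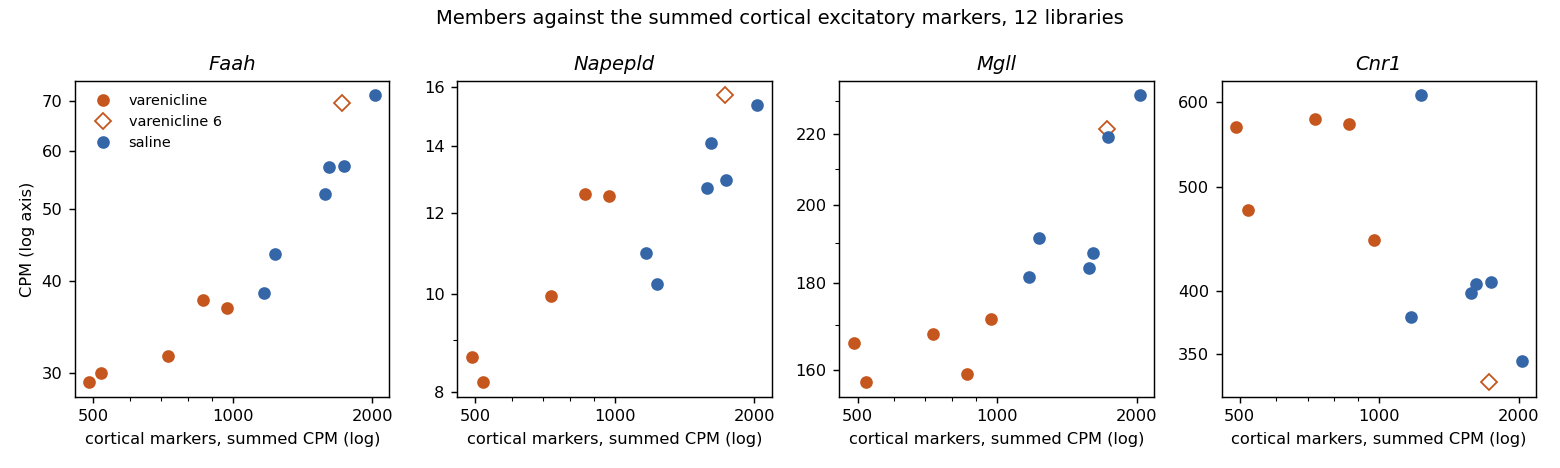
CPM of Faah, Napepld, Mgll and Cnr1 against the summed CPM of 14 cortical excitatory neuron markers, both on log axes; each point is 1 library, and the open diamond is varenicline 6. Faah runs along 1 line through both groups, r = 0.95 within varenicline and 0.99 within saline, and Cnr1 runs the other way (r = -0.71 over 12 libraries).

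With the mean log2 CPM of the cortical markers as a covariate in edgeR, the log2 fold changes were 0.14 for Faah (SE 0.118), 0.017 for Mgll (SE 0.083), 0.28 for Napepld (SE 0.106), -0.024 for Daglb (SE 0.071) and -0.13 for Cnr1 (SE 0.155). Those of Faah, Mgll, Napepld and Cnr1 thus had the opposite sign to the fit without it, and none passed (adjusted p from 0.936 to 0.997 for these 5). Dagla at -0.14 (SE 0.134) and Abhd12 at -0.066 (SE 0.060) stayed below 0, both with an edgeR adjusted p of 0.988. With that covariate and without varenicline 6, the values were -0.054 for Faah, -0.11 for Mgll, 0.38 for Napepld, -0.12 for Daglb, -0.37 for Dagla and 0.057 for Cnr1 (edgeR adjusted p from 0.426 to 0.931). The covariate and the group differ together in these libraries, so the parts of the drug and of the cortical share in these differences cannot be told apart.

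**Figure D4:**
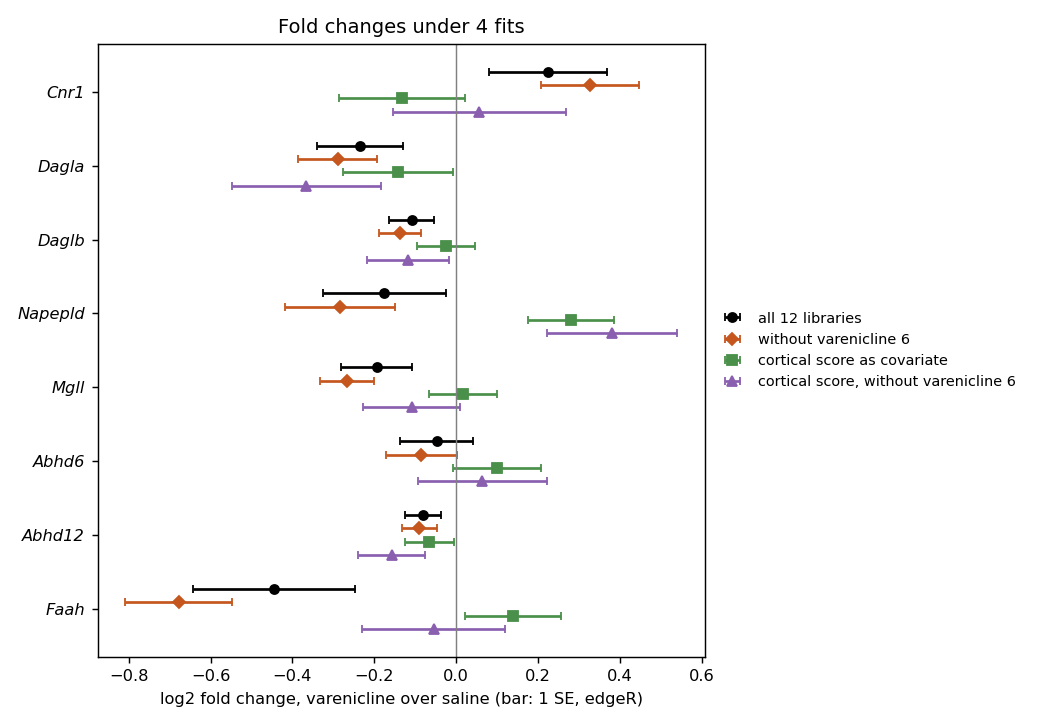
Log2 fold change, varenicline over saline, with 1 SE, for each gene in 4 edgeR fits: all 12 libraries, without varenicline 6, adjusted for the cortical score, and both. Faah is at -0.45 with all libraries, -0.68 without varenicline 6 and 0.14 with the covariate, while Dagla, Daglb and Abhd12 stay below 0 in all 4.

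The promoters of Mgll, Napepld and Daglb are shown because the levels of all 3 genes followed the cortical markers. The 250 bases before the RefSeq start site (GRCm38.p6, the build called mm10) are given on the gene's own strand, and capitals mark any match to a searched motif.

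Mgll, chr6:88724162-88724411, plus strand: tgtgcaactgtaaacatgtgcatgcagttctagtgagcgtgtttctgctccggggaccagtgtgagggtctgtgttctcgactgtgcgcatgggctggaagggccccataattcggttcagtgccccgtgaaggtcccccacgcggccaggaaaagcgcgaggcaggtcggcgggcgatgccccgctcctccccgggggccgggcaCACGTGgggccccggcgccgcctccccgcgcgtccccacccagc

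Napepld, chr5:21701623-21701872, minus strand: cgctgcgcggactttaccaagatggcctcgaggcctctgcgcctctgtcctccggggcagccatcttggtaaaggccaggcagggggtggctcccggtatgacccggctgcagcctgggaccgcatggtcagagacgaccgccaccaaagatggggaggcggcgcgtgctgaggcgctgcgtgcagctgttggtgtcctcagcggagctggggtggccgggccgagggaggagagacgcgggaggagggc

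Daglb, chr5:143464243-143464492, plus strand: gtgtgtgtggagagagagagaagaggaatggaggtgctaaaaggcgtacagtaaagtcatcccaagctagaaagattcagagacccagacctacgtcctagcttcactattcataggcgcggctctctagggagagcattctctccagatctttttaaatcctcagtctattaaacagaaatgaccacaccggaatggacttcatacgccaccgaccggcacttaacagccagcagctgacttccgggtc

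The motifs searched on both strands were the GC box (GGGCGG), the CCAAT box (CCAAT), the TATA box (TATAAA), the cAMP response element (TGACGTCA), the early growth response site (GCGNGGGCG) and the E-box (CACGTG). Among 32817 RefSeq promoter stretches of that length they occurred in 32.7%, 33.8%, 12.4%, 1.55%, 4.7% and 6.02%. Mgll held 1 E-box, starting 44 bases before the start site, and Napepld and Daglb held no match to any of the 6. GC content was 68% for Mgll, 69.6% for Napepld and 49.2% for Daglb. Of the other genes with an entry, Cnr1 held 1 E-box, starting 49 bases before its start site, Faah 2 GC boxes, at 58 and 19 bases, and Abhd6 1 CCAAT box, at 221 bases. Dagla and Abhd12 had no entry. The printed stretch of Mgll lies over annotated exon sequence of Gm26588. The stretches of Faah and Cnr1 lie over annotated exons of those genes themselves and are not printed.

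Other genes of the endocannabinoid pathway were described from a list of 33, of which 27 had enough counts to be tested. Of the 27, 11 were higher and 16 lower, with a median log2 fold change of -0.019. At an unadjusted p under 0.05, 2 were higher and 3 lower, to be read against the 7.26% and 9.63% of all tested genes, and 0 passed after adjustment in edgeR. Cnrip1, which encodes a protein that binds the CB1 tail, had 25.4, 29.6 and 39.7 CPM (lowest, median, highest) with varenicline and 32.7, 40.7 and 44.0 CPM with saline (log2 fold change -0.36, SE 0.102, edgeR adjusted p = 0.145). DESeq2 called Cnrip1, with an adjusted p of 0.0400. Fabp3, a fatty acid binding protein, had 21.9, 23.5 and 37.3 CPM with varenicline and 28.9, 34.8 and 44.9 CPM with saline (-0.44, SE 0.133, edgeR adjusted p = 0.147; DESeq2 adjusted p = 0.0432). In both genes the ranges of the groups overlapped.

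Naaa, a lysosomal amidase of N-acylethanolamines, was higher at 32.9, 39.6 and 41.1 CPM with varenicline against 30.7, 34.2 and 35.5 CPM with saline (0.19, SE 0.063, edgeR adjusted p = 0.173). Grm5, the glutamate receptor whose activation drives 2-arachidonoylglycerol synthesis, had 239, 353 and 371 CPM with varenicline and 244, 268 and 313 CPM with saline (0.27, SE 0.098, edgeR adjusted p = 0.192). Gde1, a glycerophosphodiesterase of another anandamide route, had a log2 fold change of -0.10 (edgeR adjusted p = 0.213) and the serine hydrolase Abhd4 0.12 (edgeR adjusted p = 0.362). Without varenicline 6, edgeR called 2 of the 27 higher, Naaa and Grm5, and 3 lower, Cnrip1, Fabp3 and Pla2g4e, the last named because it completes this count, where 3.55% of all tested genes were called higher and 7.14% lower. Adjusted for the cortical score, the values were -0.11 for Cnrip1, -0.074 for Fabp3, 0.042 for Naaa and 0.0078 for Grm5. The other receptors for these lipids had too few counts to be tested: over all 12 libraries Cnr2, the cannabinoid receptor of immune cells, had 64 counts, Gpr55 48, Trpv1 33, Gpr18 5 and Gpr119 0. Hrasls5 had 28 counts. The deposited FPKM of Gpr55 does not match its counts, at 1.11 to 2.19 FPKM with varenicline and 1.16 to 1.72 FPKM with saline, which comes near the level of Napepld, whereas Cnr2 was at 0.0225 to 0.174 and 0.0389 to 0.205 FPKM. No level is drawn from either value for Gpr55.

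**Figure D5:**
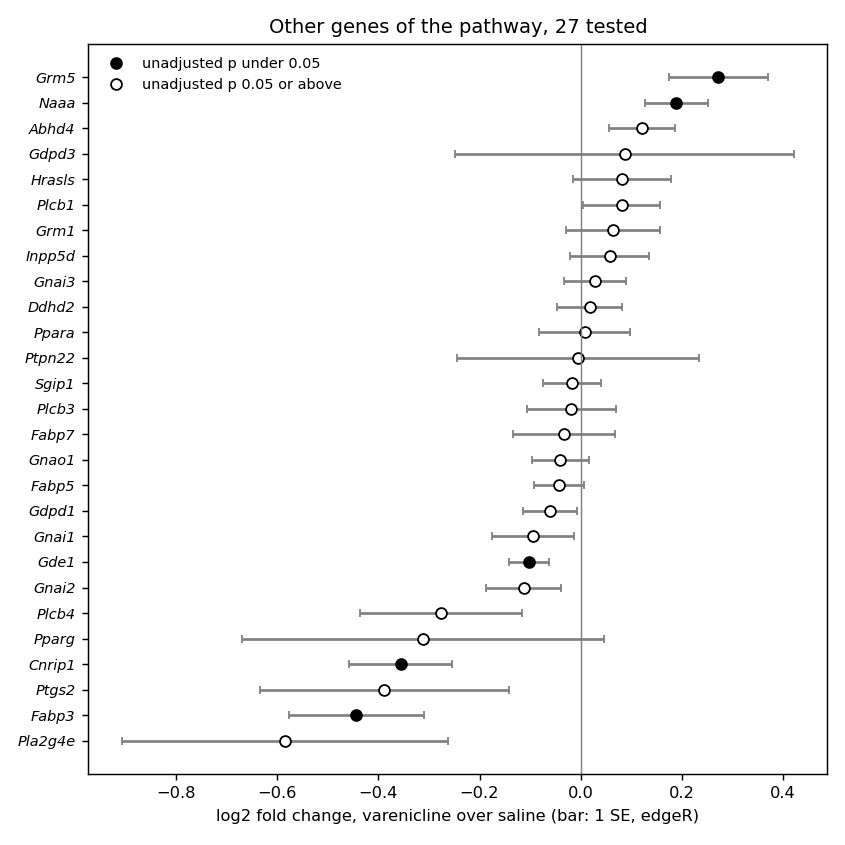
Log2 fold change, varenicline over saline, with 1 SE, of the 27 tested other genes of the pathway; filled points had an unadjusted p under 0.05 in edgeR. Fabp3, Cnrip1 and Gde1 (-0.44, -0.36 and -0.10) are filled on the lower side and Grm5 and Naaa (0.27 and 0.19) on the higher side, and none passed after adjustment.

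The genes whose pattern over the 12 libraries was most like that of each member were found among 11846 other genes averaging at least 5 CPM, by Pearson's r of log2 CPM, as a description. For Faah they were Map3k9 (0.99) and Gpr162 (0.98), and for Mgll they were Svop (0.96) and Npnt (0.95). For Cnr1 they were Gpr155 (0.95) and Kcnk2 (0.94), and for Dagla Cox6a1 (0.95) and Dab2ip (0.95). For Daglb they were Ssh3 (0.96) and Arhgef25 (0.95), and for Napepld St8sia1 (0.93) and Wnt9a (0.93). Those of Abhd12 were Pcnxl2 (0.93) and Plxdc1 (0.92), and those of Abhd6, the least matched of the 8, were Zfp583 (0.89) and Tox (0.86).

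Levels of further cell types stood beside these results. GABAergic interneuron markers were at 308 to 536 CPM summed with varenicline and 448 to 521 CPM with saline (exact permutation p = 0.0216, adjusted p = 0.141), 8 of 10 lower, with varenicline 6 the highest at 536 CPM. Microglia markers, of interest for Daglb, were at 570 to 700 CPM with varenicline and 594 to 661 CPM with saline, 5 of 10 higher (adjusted p = 0.532), and astrocyte markers, a cell type that expresses Mgll, at 6367 to 7083 and 6170 to 6666 CPM, 9 of 10 higher (adjusted p = 0.192). Mature oligodendrocyte markers were at 10530 to 13810 CPM with varenicline and 11166 to 13822 CPM with saline, 9 of 10 higher (adjusted p = 0.194). Markers of septum and pallidum, regions that border the striatum, were higher in 9 of 9, 7 of them at an unadjusted p under 0.05 in edgeR, with a median log2 fold change of 0.75. Their summed level was 73.1 to 161 CPM with varenicline (median 84.2) and 65.8 to 86.1 CPM with saline (median 72.1; exact permutation p = 0.0844, adjusted p = 0.192). Varenicline 1 and 3, at 161 and 151 CPM, lay above all other libraries. Choroid plexus and ependyma markers were higher in 8 of 8, none at an unadjusted p under 0.05, and ranged widely in both groups, at 117 to 1953 CPM with varenicline and 108 to 1694 CPM with saline (adjusted p = 0.746). None of the markers in these lists was at 0. The part of the septal, choroid plexus, interneuron, microglia, astrocyte and oligodendrocyte levels in the members' differences was not tested.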

How the data were processed

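RNA sequencing was done on 12 striatal libraries, 6 per group. Build mm10 and the tools TopHat2, featureCounts, Cuffnorm, Cuffdiff, Trimmomatic, FastQC and DESeq2 are listed, with no order or settings, per the submitters' processing notes. The sources used here name no versions and no annotation. Per the labels' protocols, TruSeq libraries gave single reads of 150 nt. The authors deposited raw counts per gene, FPKM values and a signal of scaled counts, by its file name from Cuffnorm; the first served for tests, the second for levels between genes, and all 3 for alternatives. Gene length is the exon length in the deposited count table.

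Genes passing filterByExpr (edgeR 4.0.16, R 4.3.3) numbered 15148; after TMM scaling they entered edgeR's quasi-likelihood F test together, with Benjamini-Hochberg adjustment and 0.05 as the threshold. Every fold change is varenicline over saline on the log2 scale; the SE is the log2 fold change over the square root of F. Marker sums were compared by exact permutation over 924 assignments. Relations across libraries used 100000 permutations. Scripts were tested on simulated data. Alternatives used DESeq2 1.42.0, limma 3.58.1, other scalings and filters, FPKM and Cuffnorm values, a fit adjusted for the cortical score and each library left out. Figures were drawn with matplotlib 3.10.9.

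The members and all gene lists were chosen with earlier results of these data known. Named are the 8 members, the 6 other pathway genes with the smallest p, and the 2 genes most like each member. Counts of each of the 66 library pairs differed beyond sampling noise (lowest chi-square per degree of freedom 5.71). Whether each library is a single mouse is not stated, so the p-values reflect only how far these samples spread, which may be technical. Replicate numbers follow accession order. At these depths 3 counts correspond to 0.107 to 0.225 CPM, a floor for counting error only.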

Additional observations from a re-analysis of the deposited data

Results flagged for a closer look

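Among 42 sets of 6 values examined in log2 CPM, 8 genes and 13 summed marker lists in each group, 11 had an isolated highest or lowest library. Chance flags about 1 in 20 such sets, which would be 2.1. The sets share libraries and hold correlated genes, so the 11 are not separate events. Of the 11, 6 concerned varenicline 6. That library had 5.14 for Daglb (other varenicline libraries 4.88 to 4.95), 7.79 for Mgll (7.30 to 7.42) and 6.12 for Faah (4.87 to 5.24). Its summed markers of direct pathway neurons were 9.16 (9.60 to 9.86), of cholinergic neurons 5.76 (6.16 to 6.35) and of mature oligodendrocytes 13.36 (13.65 to 13.75). Varenicline 1 was low for summed oligodendrocyte precursor markers at 8.57 (8.69 to 8.77), microglia markers at 9.15 (9.34 to 9.45) and endothelium markers at 8.73 (8.85 to 8.90). In the saline group Cnr1 was 9.25 in saline 4 (8.43 to 8.67), the library with the highest summed projection neuron markers of its group, and the summed mature oligodendrocyte markers were 13.75 in saline 6 (13.45 to 13.52).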

How the results depend on the processing

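Of 200 values of the 8 genes under the 25 alternatives, 186 kept their direction and side of the threshold, 9 had the opposite sign and 5 passed the threshold that the main value missed. Dagla and Abhd12 kept both in all 25, those with other scalings, filters, FPKM and Cuffnorm values included. With the cortical score as a covariate the opposite signs were 0.14 for Faah, 0.017 for Mgll, 0.28 for Napepld, 0.0999 for Abhd6 and -0.13 for Cnr1, while adding that covariate and leaving out varenicline 6 gave 0.38 for Napepld and 0.064 for Abhd6. Leaving out each library, Abhd6 ran from -0.097 to 0.0065 and also changed sign without varenicline 4 or 5 (0.0065 and 0.00081). The number of the 8 genes called was 0 in the main edgeR fit and ran from 0 to 2 when each library was left out, 2 of them (Faah and Mgll) without varenicline 6; it was 3 with limma-voom with sample weights. Over all genes the number called was 0 in the main fit, 1628 without varenicline 6, 387 with DESeq2, 2099 with limma-voom and 10 under the cortical covariate. Of the 13 marker lists 0 passed, and leaving out each library gave 0 to 5. The 5 without varenicline 6 were the cortical, GABAergic interneuron, direct pathway, cholinergic and mature oligodendrocyte lists. By counts scaled to transcript length, 6 of the 8 genes kept their place in the level order, and Daglb and Faah changed places. The cause of these differences was not tested. No paired analysis was possible because the labels give every sample the same replicate number. Ethanol intake per mouse was not analysed here.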
